A study of Mus musculus with 4 samples.

Results

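The genes described here are 10 genes of activin and TGF-beta signalling: the ligand genes Inhba, Inhbb, Tgfb1, Tgfb2 and Tgfb3, the ligand-binding antagonist genes Fst and Fstl3, the receptor genes Tgfbr1 and Tgfbr2, and Smad7, an inhibitor inside the cell. They were taken by symbol from a table of 24940 genes, and all 10 were found. They were chosen by symbol from results of this same comparison, that is, on the levels in these 4 libraries and their difference between the groups, so their differences between the groups are given as a description, with no p-value. RNA was sequenced from pancreatic islets of male mice aged 3 to 4 months, in 4 libraries of about 300 islets, each pooled from 2 to 3 mice. The control group was 2 libraries of non-transgenic control mice (replicates 1 and 2), and the other group was 2 libraries of Tafazzin-knockdown mice (replicates 3 and 4). All mice ate a low-fat chow diet. How the knockdown is driven, and in which cells, is not given in the sources used here, and the control mice carry no transgene, so that an effect of a transgene and one of Tafazzin loss cannot be told apart.

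Activins and TGF-betas are secreted dimers that bring together a type II and a type I receptor kinase on the cell surface, after which SMAD2 and SMAD3 are phosphorylated, join SMAD4 and move to the nucleus. Follistatin and follistatin-like 3 bind activin in the extracellular space, and SMAD7 blocks the type I receptors as part of a feedback loop. In the pancreas, activins act on endocrine cells, and TGF-beta is a well-known activator of stellate cells, the matrix-producing cells of the organ.

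Levels are given in units, which are the reads of a gene for each 10000000 reads counted in that library, with no scaling by gene length. By library, 1 read was worth 0.123 to 0.145 units, and the library totals ran from 68823160 to 81073502 reads. Reads counted in any gene row numbered 55470964 to 65175895 by library. Of these, only 4320910 to 4962798 lay outside 13 very abundant rows, led by the precursor of ribosomal RNA. The insulin genes Ins1 and Ins2 were not put among the 13 rows, so their reads are in that number. The reads outside the 13 rows set the counting precision for all other genes. Among rows that overlap no other row and hold 1 to 9 reads, 86.0% to 88.0% held an even number, so that most reads were counted in pairs, and the number of separate fragments is lower than the number of reads. Taz, the gene of Tafazzin, stood at 23.1 and 15.4 against 13.8 and 12.7 units (controls first, as in every such pair below), in the direction of the labels but not called (adjusted p = 0.529 by limma). Median-ratio scaling, which centres the typical gene at no change, gave an unadjusted p of 0.00311 by limma (adjusted p = 0.136). For edgeR the unadjusted p was 0.00282 (adjusted p = 0.122), so that neither called Taz. The median log2 fold change of all 13531 genes tested was 0.17. Log2 fold changes, also called log2 differences, are given below relative to it, with their standard error (SE).

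Inhba and Inhbb, which encode the beta A and beta B subunits of activin, had unlike values. Inhba (NM_008380, mm10 chromosome 13, 16011851 to 16031609, plus strand) had 5.81 units in control replicate 1 and 9.37 in control replicate 2. Knockdown replicate 3 had 41.1 units and knockdown replicate 4 had 30.01, and the reads numbered 40, 76, 315 and 236. Both knockdown libraries lay far above both controls, with means of 7.59 ± 2.52 and 35.5 ± 7.82 units (SD, n = 2 each) and a ratio of 4.68. On the log2(value + 1) scale the difference was 1.94 ± 0.25 SE relative to the median of all genes, and 2.10 before that median was taken off.

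Inhbb (NM_008381, chromosome 1, 119415463 to 119422248, minus strand) reached 20.5 and 14.1 units in the controls and 17.2 and 16.5 units in the knockdown libraries. The groups overlapped, with means of 17.3 ± 4.54 and 16.9 ± 0.482 units (SD, n = 2 each). The log2 difference was -0.18 ± 0.25 SE relative to the median of all genes, and -0.0096 before that median was taken off. Of the reads of both subunit genes, Inhba held 22.1% and 40% in the controls, against 70.5% and 64.5% in the knockdown libraries. The 95% Wilson intervals over read pairs were 14.7% to 31.5% and 30.7% to 50.1% in the controls, and 64.3% to 76.1% and 57.3% to 71.1% in the knockdown libraries. These shares do not depend on how the libraries are scaled. The intervals cover counting error only, not the spread between pools of mice, and those of the 2 controls barely overlapped. Since Inhba was chosen on this comparison, the distance between the groups is a description and carries no test.

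The row of Inhba shares 11572 bases with B230303A05Rik, a row on the opposite strand, and the values were counted without regard to strand. B230303A05Rik held 18, 12, 60 and 50 reads in replicates 1 to 4, so that at least 22, 64, 255 and 186 reads of Inhba lay outside the shared stretch. That is 3.20 and 7.89 units against 33.3 and 23.7 units, with the groups still apart.

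**Figure D1:**
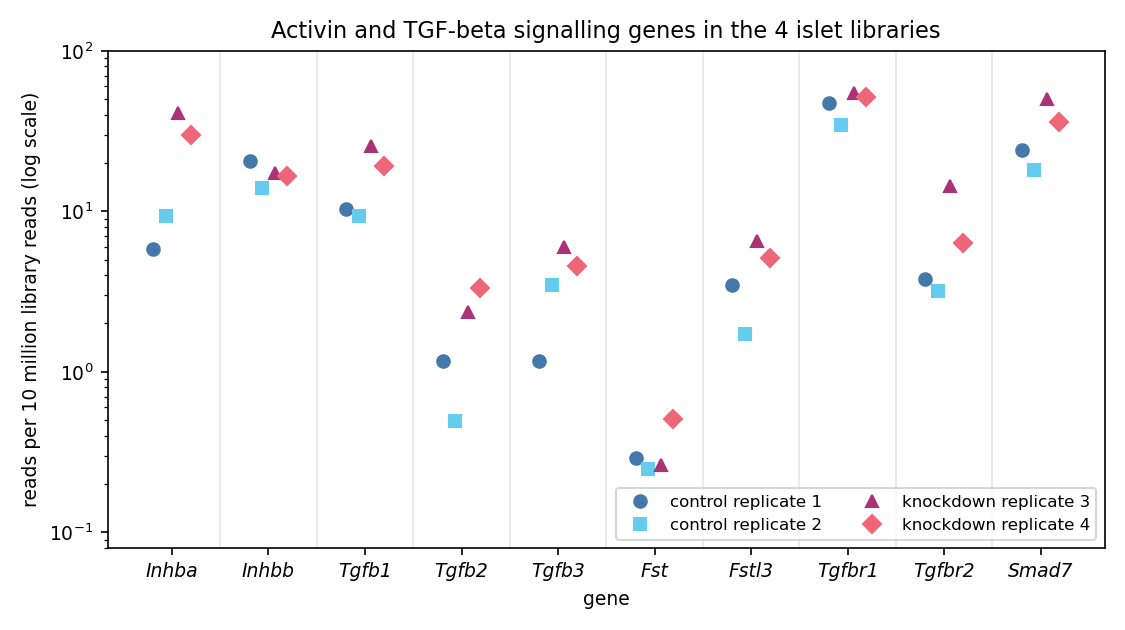
Level of each of the 10 genes in each library, in reads per 10000000 library reads on a log scale, with 1 point per library. For 8 genes both knockdown points lie above both control points, most widely for Inhba (5.81 and 9.37 against 41.1 and 30.01 units), while for Inhbb and Fst the groups overlap. In these units 34.9% of all genes tested have both knockdown libraries above both controls.

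Among the TGF-beta ligand genes, Tgfb1 was the one with the most reads. Tgfb1 (NM_011577, chromosome 7, 25687002 to 25705077, plus strand), which encodes the most widely expressed TGF-beta, reached 10.3 and 9.37 units in the controls and 25.6 and 19.1 units in the knockdown libraries, from 71, 76, 196 and 150 reads. The controls lay close together and both knockdown libraries lay above them, with means of 9.85 ± 0.666 and 22.3 ± 4.59 units (SD, n = 2 each) and a log2 difference of 0.93 ± 0.26 SE. Tgfb2 (NM_001329107, chromosome 1, 186622792 to 186705989, minus strand) stood at 1.16 and 0.493 units against 2.35 and 3.31 units. Those values came from only 8, 4, 18 and 26 reads, and the log2 difference was 0.91 ± 0.44 SE.

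Tgfb3 (NM_009368, chromosome 12, 86056743 to 86079041, minus strand) stood at 1.16 and 3.45 units against 5.999 and 4.58 units, from 8, 28, 46 and 36 reads, with a log2 difference of 0.84 ± 0.35 SE. Control replicate 2 lay nearer to knockdown replicate 4 than to control replicate 1. Tgfb1 held 81.6% and 70.4% of the reads of the 3 TGF-beta ligand genes in the controls, against 75.4% and 70.8% in the knockdown libraries. All 4 intervals overlapped, so that no change in the make-up of the ligand genes was detectable at this depth.

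The antagonist genes were read at low levels. Fst, which encodes follistatin (NM_001301375, chromosome 13, 114452262 to 114458951, minus strand), had 2 and 2 reads in the controls and 2 and 4 reads in the knockdown libraries. That is 0.291, 0.247, 0.261 and 0.509 units, where 3 reads would be 0.370 to 0.436 units, so that no difference was detectable at this depth. Its mean was below the minimum of 1 unit, and Fst alone of the 10 genes was not in the fit. Fstl3, which encodes follistatin-like 3 (NM_031380, chromosome 10, 79777274 to 79782630, plus strand), stood at 3.49 and 1.73 units against 6.52 and 5.09 units, from 24, 14, 50 and 40 reads, with a log2 difference of 0.79 ± 0.33 SE. Both knockdown libraries lay above both controls. The row of Fstl3 shares 1156 bases with Prss57, whose row held 21, 10, 31 and 29 reads, and it lies whole within the wide row of Bc1, so that its reads cannot be fully told apart from theirs.

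The receptor genes had unlike values too. Tgfbr2, the type II receptor that binds the ligand (NM_029575, chromosome 9, 116087695 to 116175363, minus strand), reached 3.78 and 3.21 units in the controls and 14.3 and 6.36 units in the knockdown libraries, from 26, 26, 110 and 50 reads. Knockdown replicate 3 stood far above the rest, and the means were 3.49 ± 0.404 and 10.4 ± 5.65 units (SD, n = 2 each), with a log2 difference of 1.08 ± 0.30 SE. Tgfbr1, the type I receptor ALK5 (NM_001312868, chromosome 4, 47353222 to 47414924, plus strand), reached 47.1 and 34.3 units against 54.8 and 51.6 units. Its means of 40.7 ± 9.04 and 53.2 ± 2.22 units (SD, n = 2 each) lay apart by more than the SD of either group, with a log2 difference of 0.23 ± 0.24 SE.

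Tgfbr2 held 7.43% and 8.55% of the reads of the 2 receptor genes in the controls, and 20.8% and 11.0% in knockdown replicates 3 and 4. The interval of knockdown replicate 3, 16.3% to 26.0%, lay above those of both controls (up to 12.3% and 14.1%). That of knockdown replicate 4, 7.54% to 15.7%, overlapped both, and these intervals too cover counting error only.

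**Figure D2:**
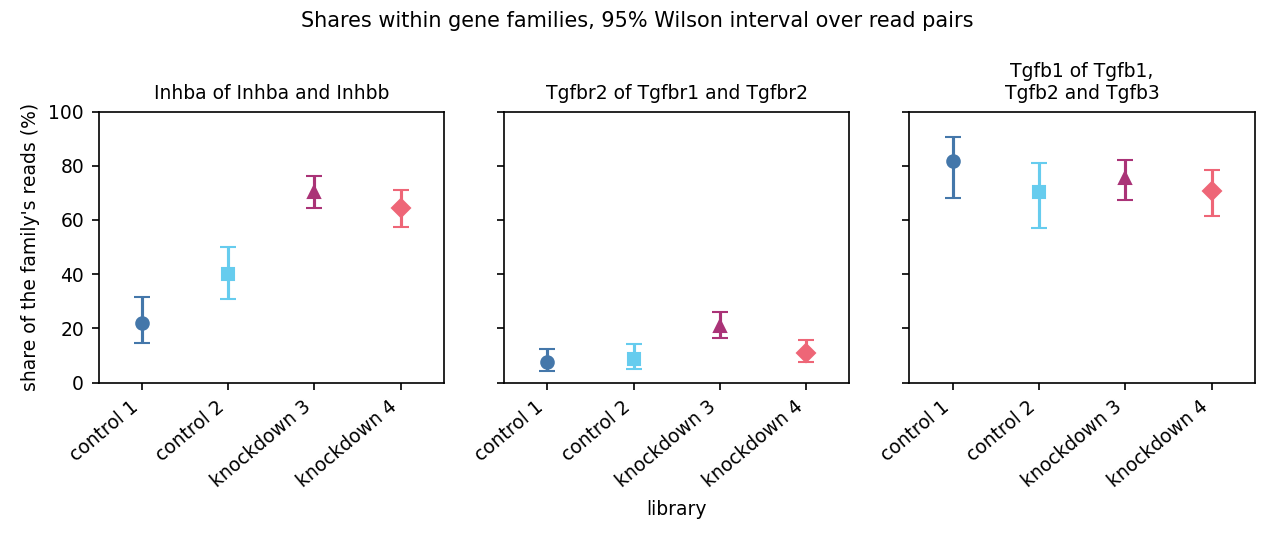
Share of 1 gene in the summed reads of its family in each library, in percent, with 95% Wilson intervals over read pairs. Inhba goes from 22.1% and 40% (controls) to 70.5% and 64.5% in the knockdown libraries, Tgfbr2 stands out in knockdown replicate 3 only (20.8%), and the intervals of Tgfb1 overlap.

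Smad7, whose product blocks type I receptors (NM_001042660, chromosome 18, 75367365 to 75395934, plus strand), reached 24.1 and 18.0 units in the controls. In the knockdown libraries it was read at 49.8 and 36.1 units. The reads numbered 166, 146, 382 and 284, and both knockdown libraries lay above both controls. The means were 21.1 ± 4.32 and 43.0 ± 9.69 units (SD, n = 2 each), a ratio of 2.04, with a log2 difference of 0.83 ± 0.25 SE.

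Inhba, Tgfb1, Tgfbr2 and Smad7 were called higher in the fit of all genes with limma at an adjusted p under 0.05, and 0 of the 10 genes were called lower. In that fit 2.49% of all genes were called higher and 0.0443% lower. Both knockdown libraries lay above both controls in 8 of the 9 genes fitted, Inhbb being the exception, and in 34.9% of all genes tested, with 4.49% below. Since the genes were proposed from this comparison, nothing is read from these counts. After median-ratio scaling, which centres the typical gene at no change, Inhba, Tgfb1 and Smad7 were called (1.12% of all genes higher and 0.155% lower), and both knockdown libraries of Inhbb then lay below both controls. After that scaling 20.4% of all genes had both knockdown libraries above and 20% below. The quasi-likelihood test of edgeR on recovered reads called the same 3 genes (1.29% of all genes higher and 0.148% lower), and DESeq2 called Inhba and Smad7 (0.606% higher and 0.0739% lower).

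In the limma fit, leaving out 1 library ended the calls of Tgfb1, Tgfbr2 and Smad7 but not that of Inhba. Without knockdown replicate 3 the limma fit called only Inhba of the 10 genes, with a log2 difference of 1.73, and those of Tgfb1, Tgfbr2 and Smad7 were 0.73, 0.56 and 0.61. Without knockdown replicate 4 Inhba, Tgfb1 and Tgfbr2 were called and Smad7 was not. Without control replicate 1 Fstl3 and Tgfbr1 were called as well, and without control replicate 2 Tgfb3 was. Over all 13531 genes limma called 1266 higher when control replicate 1 was left out and 361 when control replicate 2 was. It called 28 and 324 when knockdown replicates 3 and 4 were left out in turn, against 337 with all libraries. When median-ratio scaling or edgeR was combined with leaving out control replicate 1, 0 of all genes were called (857 and 718 genes had an unadjusted p under 0.05), Inhba among those lost. Of the 10 genes, 8 were higher in knockdown replicate 3 than in replicate 4, the exceptions being Tgfb2 and Fst. Of all genes tested, 54.5% were.

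**Figure D3:**
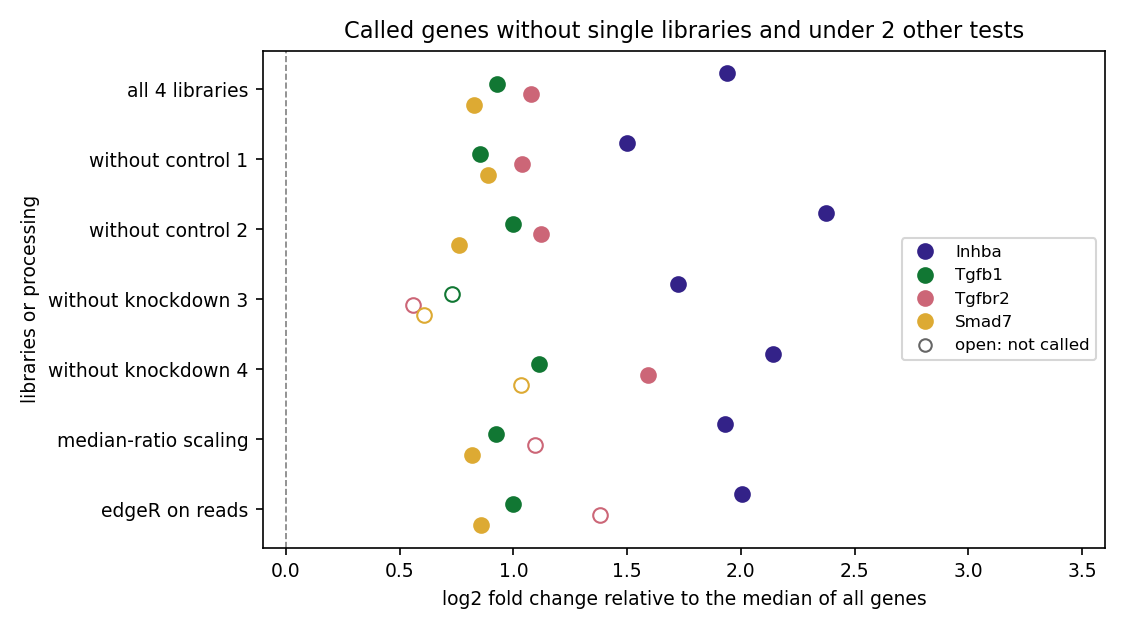
Log2 fold change, relative to the median of all genes, of the 4 called genes with all libraries, without each library in turn, after median-ratio scaling and in edgeR; filled points are called at an adjusted p under 0.05. Inhba is called in all 7 settings drawn, while Tgfb1, Tgfbr2 and Smad7 lose their call without knockdown replicate 3 (0.73, 0.56 and 0.61). Tgfbr2 is also not called after median-ratio scaling or in edgeR, nor Smad7 without knockdown replicate 4. Not drawn are the scaled and edgeR fits without control replicate 1, in which Inhba is not called. The genes were chosen on this comparison, so their calls are a description and carry no test.

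Per kilobase of gene span, introns included, Inhbb was the highest of the 10 genes in the controls, at 2.55 ± 0.670 units per kb (SD, n = 2 here and below). Smad7 followed at 0.737 ± 0.151, Tgfbr1 at 0.659 ± 0.147, Tgfb1 at 0.545 ± 0.0369, Fstl3 at 0.487 ± 0.232 and Inhba at 0.384 ± 0.127 units per kb. Each of these 5 differed from its neighbour in the order by less than the larger of the SDs, so that their order is not fixed. Tgfb3 stood at 0.104 ± 0.0727, Fst at 0.0402 ± 0.00465, Tgfbr2 at 0.0398 ± 0.00461 and Tgfb2 at 0.00995 ± 0.00569 units per kb. In the knockdown libraries Inhba stood in place 2 at 1.80 ± 0.396 units per kb, below Inhbb at 2.49 ± 0.0710 and within the spread of Smad7 at 1.504 ± 0.339. Tgfb1 stood at 1.23 ± 0.254, Fstl3 at 1.08 ± 0.189 and Tgfbr1 at 0.862 ± 0.0360 units per kb in the knockdown libraries. The low genes kept low levels there, with Tgfb3 at 0.237 ± 0.0451, Tgfbr2 at 0.118 ± 0.0644, Fst at 0.0576 ± 0.0262 and Tgfb2 at 0.0340 ± 0.00816 units per kb. Genes with long introns come out low on this scale, since the span of Tgfbr2 is 87.7 kb and that of Inhbb 6.79 kb.

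The 250 bases before the start site were available for 7 of the 10 genes at the start that the table gives, from RefSeq on GRCm38.p6, the assembly also called mm10. Sequences of Inhba, Tgfb1 and Tgfbr2 are shown since these genes were higher together, and that of Inhbb for contrast with its sister subunit. Capitals mark 3 motifs found on either strand. The GC box was searched as GGGCGG. For the core promoter element named TATA box the letters were TATAAA. The short SMAD box was searched as CAGAC. Each line runs 5′ to 3′ on the strand of the gene.
Inhba, chr13:16011601-16011850, plus strand: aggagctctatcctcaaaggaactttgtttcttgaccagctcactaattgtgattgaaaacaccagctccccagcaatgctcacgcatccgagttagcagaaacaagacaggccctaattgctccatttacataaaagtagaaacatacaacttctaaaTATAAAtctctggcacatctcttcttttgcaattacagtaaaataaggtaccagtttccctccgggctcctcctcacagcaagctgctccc
Inhbb, chr1:119422249-119422498, minus strand: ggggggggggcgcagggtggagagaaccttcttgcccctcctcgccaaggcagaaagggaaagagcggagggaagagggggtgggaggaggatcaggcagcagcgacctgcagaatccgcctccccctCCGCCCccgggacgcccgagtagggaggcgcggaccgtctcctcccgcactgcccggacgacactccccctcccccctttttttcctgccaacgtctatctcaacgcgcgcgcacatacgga
Tgfb1, chr7:25686752-25687001, plus strand: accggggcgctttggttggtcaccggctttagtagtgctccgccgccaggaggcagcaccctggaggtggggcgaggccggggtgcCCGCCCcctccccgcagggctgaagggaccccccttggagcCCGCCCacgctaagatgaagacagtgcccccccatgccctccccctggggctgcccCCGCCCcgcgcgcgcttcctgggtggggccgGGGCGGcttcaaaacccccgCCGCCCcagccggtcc
Tgfbr2, chr9:116175364-116175613, minus strand: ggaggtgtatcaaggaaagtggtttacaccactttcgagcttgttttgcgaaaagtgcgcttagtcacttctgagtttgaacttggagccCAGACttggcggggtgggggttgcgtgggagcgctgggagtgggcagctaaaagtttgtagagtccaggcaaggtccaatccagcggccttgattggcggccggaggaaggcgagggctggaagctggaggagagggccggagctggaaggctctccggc

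The promoters of the activin subunit genes were unlike in composition. That of Inhba held 43.2% G and C and a TATA box that starts 91 bases before the start site, and that of Inhbb held 68.0% G and C and 1 GC box; the median of all 32851 promoters in the RefSeq table was 52.4%. The Tgfb1 window held 75.2% G and C and 5 GC boxes, and the Tgfbr2 window 58.4% and 1 SMAD box. In all promoters, a GC box was found in 32.7%, a TATA box in 12.4% and a SMAD box in 42.2%. The palindromic SMAD box GTCTAGAC (0.167% of all promoters), the AP-1 site TGANTCA (6.75%) and the CRE TGACGTCA (1.55%) were also searched on both strands, and none was in any of the 7 windows, which says only that these letters are not there. Fstl3 and Tgfb2 held 2 SMAD boxes each.

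The wider pathway was described with 85 other genes in 7 role groups, of which 72 were in the fit. Of these 19 rose and 0 fell by limma over all genes tested, beside 2.49% and 0.0443% of all genes. The 85 genes were listed with earlier results of these data known, so these counts are a description and carry no test. Col1a1, Col1a2, Dcn and Acta2 among them also stand among the stellate and fibroblast markers below. The middle one of these 72 genes had a log2 difference of 0.20, where the middle of all genes is 0 by construction. After median-ratio scaling 16 were called, and by edgeR 16. Without knockdown replicate 3 or 4 the middle log2 difference of the 72 genes by limma was 0.19 or 0.32. Without control replicate 1 or 2 it was 0.26 or 0.25. How many of the 72 were called depended on the library left out, as it did over all genes. The largest medians were those of the transcriptional targets (0.82), the other extracellular antagonists (0.80) and the genes of TGF-beta latency and activation (0.54).

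The receptor genes for activin overlapped between the groups in unscaled units. Acvr2a and Acvr2b, the type II receptor genes, stood at 36.0 and 23.6 against 32.0 and 36.4 units, and at 20.5 and 11.6 against 15.9 and 16.5 units. Acvr1b, the main type I receptor gene, stood at 24.99 and 22.9 against 24.5 and 25.4 units. Acvr1c, another type I receptor gene, stood at 14.1 and 9.25 against 7.56 and 9.67 units, with a log2 fold change of -0.55 ± 0.27 SE. Its adjusted p was 0.728 by limma, which tested the unshifted change of -0.38. After median-ratio scaling limma gave an unadjusted p of 0.0304 (adjusted p = 0.392), and edgeR gave 0.0359 (adjusted p = 0.419). None of the 4 was called. Of the 11 receptor and coreceptor genes tested beside Tgfbr1 and Tgfbr2, 1 was called: Eng, the TGF-beta coreceptor endoglin, rose from 28.6 and 25.04 to 69.6 and 45.5 units (adjusted p = 0.00182 by limma, with a log2 difference of 0.88 ± 0.25 SE). The row of Eng overlaps that of Fpgs, and Eng lost its call without knockdown replicate 3 in limma, after scaling and by edgeR, and without knockdown replicate 4 in unscaled limma alone. Without control replicate 2 Eng was called neither after scaling nor by edgeR. Bmpr1a, a BMP receptor gene with the most reads of the group, stood at 80.6 and 58.8 against 77.2 and 77.8 units.

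Of the other ligand genes 0 of 8 tested were called by limma or edgeR, with 2 at an unadjusted p under 0.05, Gdf15 and Bmp2. Bmp2 stood at 0.581 and 0.493 against 2.35 and 2.80 units (adjusted p = 0.178 by limma), and Gdf15, a stress-induced ligand, at 5.81 and 4.69 against 9.39 and 7.25 units (adjusted p = 0.463 by limma). Inha, whose inhibin alpha chain pairs with the activin subunits, overlapped between the groups at 7.41 and 12.1 against 9.91 and 7.76 units. Bmp1, a protease named as a BMP and the gene with the most reads here, stood at 53.5 and 35.9 against 46.2 and 43.7 units. Inhbc, Inhbe and Nodal had 0 reads in all 4 libraries, which allows up to 0.436 units in the shallowest.

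Of the SMAD genes 1 of 7 was called. Smad3, a receptor-activated SMAD, rose from 6.54 and 7.52 to 26.5 and 10.7 units (adjusted p = 0.00101 by limma, with a log2 difference of 0.99 ± 0.26 SE). Knockdown replicate 3 was by far the highest, and Smad3 was called neither after median-ratio scaling (adjusted p = 0.110 by limma) nor by edgeR (adjusted p = 0.0528) nor without knockdown replicate 3. Smad2, the other activin and TGF-beta SMAD, stood at 30.8 and 27.6 against 29.9 and 31.3 units. Smad4, the common partner, stood at 46.9 and 44.5 against 59.6 and 53.4 units (adjusted p = 0.803 by limma).

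Among intracellular regulators 2 of 13 rose, Pmepa1 and Tgif1, beside 2.49% of all genes by limma. Pmepa1, which is induced by TGF-beta and restrains it, went from 20.6 and 21.0 to 63.6 and 33.3 units (adjusted p = 0.000758 by limma, with a log2 difference of 0.95 ± 0.25 SE). Tgif1, a SMAD corepressor, was called with overlapping groups, at 4.36 and 10.4 against 20.7 and 10.3 units (adjusted p = 0.00989 by limma), and was not called after median-ratio scaling, by edgeR, or without control replicate 1 or knockdown replicate 3. Pmepa1 was not called without knockdown replicate 3, nor after scaling or by edgeR without control replicate 2. Fkbp1a, whose product FKBP12 holds type I receptors inactive, had the most reads, at 112.8 and 83.0 against 138.8 and 131.6 units (adjusted p = 0.444 by limma).

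Genes that store and release latent TGF-beta rose in 4 of 10 cases, beside 2.49% of all genes by limma. Ltbp1 and Ltbp2 encode latent TGF-beta binding proteins of the matrix. Ltbp1 rose from 2.91 and 2.96 to 17.0 and 9.16 units (adjusted p = 3.42e-07 by limma, with a log2 difference of 1.61 ± 0.29 SE). Ltbp2 rose from 5.52 and 5.06 to 18.5 and 15.9 units (adjusted p = 2.72e-06 by limma), and its row overlaps that of D030025P21Rik. Itgb6, the integrin subunit that activates latent TGF-beta on epithelia, rose from 1.16 and 3.45 to 14.3 and 8.14 units (adjusted p = 1.48e-07 by limma, with a log2 difference of 1.77 ± 0.31 SE).

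Lrrc32, the cell-surface anchor GARP of latent TGF-beta, rose from 12.1 and 13.9 to 41.2 and 33.6 units (adjusted p = 1.98e-06 by limma). These 4 genes were also called after median-ratio scaling and by edgeR. Without knockdown replicate 3, unscaled limma called Ltbp2 of the 4, and the scaled fit and edgeR called Ltbp2 and Lrrc32. Without control replicate 2, Ltbp1 was called neither after scaling nor by edgeR, and Ltbp2 was not called by edgeR. Itgav, the partner subunit of Itgb6 and the gene with the most reads of the group, overlapped at 168.5 and 124.1 against 158.1 and 168.9 units. Thbs1, thrombospondin 1, stood at 65.1 and 62.9 against 123.0 and 91.6 units and missed the threshold (adjusted p = 0.0783 by limma).

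Among the other extracellular antagonists 3 of 6 genes tested rose, beside 2.49% of all genes by limma. Fstl1, follistatin-like 1, went from 12.2 and 11.3 to 45.4 and 31.9 units (adjusted p = 6.80e-08 by limma), and Bgn, the proteoglycan biglycan, from 11.9 and 13.3 to 45.4 and 34.1 units (adjusted p = 1.56e-07 by limma). Dcn, the TGF-beta-binding proteoglycan decorin, rose from 3.49 and 4.19 to 16.4 and 11.7 units (adjusted p = 1.89e-06 by limma). Without knockdown replicate 3, unscaled limma called none of the 3, and the scaled fit and edgeR called Fstl1 and Bgn but not Dcn. Dcn was also not called by edgeR without control replicate 2. The BMP antagonist gene Nog had 0 reads in all 4 libraries, and Chrd stood at 3.49 and 2.71 against 2.35 and 2.80 units.

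Of the genes known as transcriptional targets, 8 of 17 tested rose and 0 fell, beside 2.49% and 0.0443% of all genes by limma. Ctgf, a matricellular growth factor, rose from 8.43 and 8.39 to 35.5 and 21.1 units (adjusted p = 1.64e-07 by limma). Fn1, fibronectin, had a log2 fold change of 2.53 ± 0.28 SE (adjusted p = 9.04e-19 by limma), the largest of the 72 genes. Col1a1 and Col1a2, the chains of type I collagen, rose with log2 fold changes of 1.43 ± 0.25 SE (adjusted p = 6.25e-08 by limma) and 1.54 ± 0.26 SE (adjusted p = 3.27e-08 by limma).

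Junb, an AP-1 subunit, rose from 35.02 and 38.6 to 93.0 and 60.4 units (adjusted p = 0.00265 by limma), and lost its call without knockdown replicate 3 in limma, after scaling and by edgeR. Id2 and Id3, classic BMP targets, rose with limma adjusted p of 0.00324 and 0.0449. Id3 was called neither after median-ratio scaling nor by edgeR, nor in limma or either of these without control replicate 2. Neither Id2 nor Id3 was called in any of the 3 fits without knockdown replicate 3. Junb and Id2 were called neither after scaling nor by edgeR without control replicate 2. Without knockdown replicate 4, Junb, Id2 and Id3 were called after scaling and by edgeR but not in unscaled limma. Ctgf and Col1a1 lost their calls without knockdown replicate 3 in unscaled limma but not after scaling or by edgeR. Ctgf also lost its call by edgeR without control replicate 2. The cell-cycle inhibitor genes Cdkn1a, at 35.7 and 38.7 against 46.2 and 39.4 units, and Cdkn2b, at 6.39 and 7.15 against 6.52 and 6.995 units, are also TGF-beta targets and were not called. Tgfbi, a matrix protein named for its induction by TGF-beta, overlapped at 9.01 and 12.8 against 17.2 and 11.2 units.

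**Figure D4:**
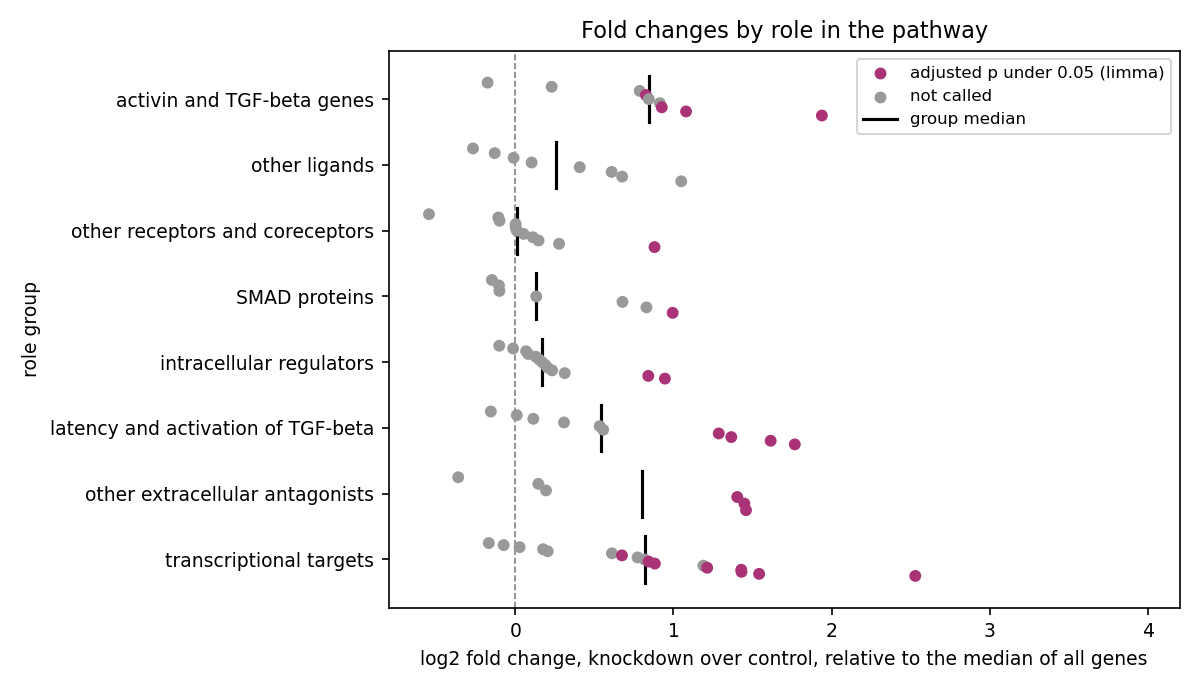
Log2 fold change, knockdown over control and relative to the median of all genes, for each gene in the fit, by role; points are genes, coloured where limma called them, and black bars are group medians. Of the groups other than the activin and TGF-beta genes, the targets hold the highest median (0.82), with Fn1 at 2.53. The other receptors have a median of 0.01, with Acvr1c the lowest at -0.55 and Eng the highest at 0.88.

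Markers of other cells of the pancreas differed between the same libraries. Of 14 markers of stellate cells and fibroblasts 8 rose by limma, and their summed level was 76.4 and 78.3 units against 255.7 and 192.2. Of 11 endothelial markers tested 5 rose, Pecam1, Vwf, Plvap, Emcn and Sox18 (summed 170.3 and 145.4 against 320.9 and 255.8 units over all 12), and of 11 duct markers tested 3 rose, Krt19, Sox9 and Spp1 (summed 999.2 and 1091 against 1949 and 1295 units). Of 7 macrophage markers tested 2 rose, Lyz2 and Cd14 (summed 36.6 and 37.4 against 53.5 and 46.2 units). Of 10 acinar, 12 beta cell and 9 alpha and delta cell markers tested, 0 were called by limma, with 1, 0 and 1 at an unadjusted p under 0.05. These counts stand beside 2.49% of all genes called higher and 0.0443% lower. The marker lists too were chosen with earlier results of these data known, so the counts are a description and carry no test. All 10 acinar and all 12 beta cell markers lay below the median of all genes (medians -0.41 and -0.28). So did 5 of 9 alpha and delta cell and 5 of 7 macrophage markers. All 14 stellate and fibroblast, 11 endothelial and 11 duct markers tested lay above it (medians 1.10, 0.65 and 0.41). The scaled fit called 6 stellate and fibroblast, 3 endothelial, 1 duct and 1 macrophage marker higher, and edgeR 6, 3, 2 and 1. Pecam1, Emcn, Krt19 and Cd14 were called in neither, and Krt19 had overlapping groups, at 11.8 and 22.2 against 48.1 and 21.9 units. Both called 1 beta cell marker lower, the transcription factor gene Mafa. Without knockdown replicate 3 limma called 3 stellate and fibroblast markers and 0 endothelial, duct or macrophage markers. The median log2 difference of the acinar markers was -1.06 without control replicate 1 and 0.24 without control replicate 2. It was -0.99 and 0.084 without knockdown replicates 3 and 4. For the beta cell markers these 4 medians were -0.18, -0.38, -0.16 and -0.47.

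The summed beta cell markers overlapped between the groups, at 99736 and 78776 against 83890 and 91073 units, and so did the acinar markers, at 3004 and 6168 against 5207 and 2459 units. Amy2a5, an acinar amylase gene, was the one marker with 0 reads in all 4 libraries. Cftr of duct, Mrc1, Itgam and Aif1 of macrophages, and Ppbp, Itga2b and Gp9 of platelets had 0 reads in at least 1 library. Platelet markers were near the limit, summing to 3.21 to 5.52 units. The most abundant members were Col1a1 of stellate cells (18.6 and 17.5 against 66.5 and 48.1 units), Kdr of endothelium (33.7 and 29.2 against 54.5 and 45.7), Spp1 of duct (251.7 and 250.6 against 720.1 and 372.6) and C1qa of macrophages (16.3 and 13.6 against 15.5 and 13.2). Of the other lists they were Ctrb1 (1001 and 2057 against 1767 and 828.2), Ins2 (58452 and 46108 against 48195 and 51995), Gcg (5422 and 6159 against 6652 and 6488) and Gp5 (3.49 and 1.97 against 2.61 and 1.78 units). Col1a1, Col1a2, Dcn and Acta2 stand both among these markers and among the pathway genes. The part that these cell types have in the levels of the activin and TGF-beta genes was not tested, and in whole islets a change in cell number and one in RNA per cell cannot be told apart.

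The genes whose pattern over the 4 libraries was most like that of a called gene were found by the root mean square difference of centred log2 values, over 10444 genes with a mean of at least 5 units. Nearest to Inhba were Fermt1, Scara3 and Adam12, at 0.11, 0.16 and 0.18; Fermt1, an epithelial kindlin, stood at 4.65 and 6.91 against 31.6 and 19.7 units. Nearest to Tgfb1 were Pdgfrb, a receptor of pericytes and fibroblasts, Nudt6 and Plxna4, at 0.030, 0.033 and 0.039. Pdgfrb stood at 8.43 and 7.65 against 21.9 and 16.5 units. Nearest to Tgfbr2 were St3gal4, Akap2 and Pakap, at 0.064, 0.066 and 0.072, of which Akap2 and Pakap overlap and share reads. Nearest to Smad7 were Alk, Tnfrsf11b and Sema3c, at 0.014, 0.047 and 0.049, and Alk, a receptor tyrosine kinase gene, stood at 9.30 and 6.66 against 19.95 and 13.99 units. With 4 libraries such likeness is a description and carries no test.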

How the data were processed

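Total RNA of 4 islet libraries was depleted of ribosomal RNA and made into directional, randomly primed libraries, per the labels' protocols. Per the submitters' processing notes, which give no roles, the tools were STAR 2.5.1b, HOMER 4.9 and edgeR, with mm10 as the build. The authors deposited 1 table of signal per gene; its name says FPKM, but in each library 100% of the values are whole multiples of 1 read per 10000000 (within 0.01 reads), whatever the gene's length, so whole reads were recovered. The deposited length equals the genomic span for 99.2% of rows. None of 467 rows that lie inside another row on its strand, and none of 140 on the opposite strand, held more reads than the row around it (rows of at least 100 reads), so values were read as counts over whole gene bodies on both strands.

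The fit took 13531 genes (mean 1 unit or more, length 200 nt or more) as log2(value + 1) into limma 3.58.1 under R 4.3.3, its prior variance following the mean, two-sided, with Benjamini-Hochberg adjustment at 0.05. P-values test the unshifted change. The prior degrees of freedom were infinite, so each gene's spread was taken from the trend. The plan was to use edgeR first only for a table of counts, so limma stayed first for this signal. Tests of edgeR 4.0.16 and DESeq2 1.42.0 on recovered reads, other filters, pseudocounts and scalings, and fits without each library were alternatives; edgeR on read pairs and edgeR without each library were added after seeing the data. All 3 tools were run on simulated reads with known changes. The simulation held no shift in make-up between libraries and no deviating library, so it says nothing on how calls depend on single libraries.

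Members, gene lists and the naming rule were chosen with earlier results of these data known. The text names the 10 genes, Taz, every other pathway gene called, the most abundant gene of each list, and the 3 genes nearest in pattern to each called gene, except 1 pathway gene that is counted but not reported here. Further pathway genes were named after their values were seen. The design has 2 libraries a group, so an exact permutation test of 1 gene could not reach 0.05. P-values rest on the spread between these pools of mice. In the main limma fit that spread came from the trend over all genes, not from the gene's own values.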

Additional observations from a re-analysis of the deposited data

How the results depend on the processing

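Of all genes, 337 were called higher and 6 lower by limma. Median-ratio scaling gave 151 and 21, edgeR 174 and 20, edgeR on read pairs 160 and 18, DESeq2 82 and 10, no mean-variance trend 528 and 16, quantile normalization 86 and 7, and no filter 80 and 0 (1513 genes with an unadjusted p under 0.05). Leaving out 1 library gave 28 to 1266 higher and 3 to 59 lower by limma, 0 to 341 and 0 to 68 after scaling, and 0 to 388 and 0 to 58 by edgeR. Without knockdown replicate 3 the scaled fit gave 45 and 49 and edgeR 56 and 54, and without control replicate 2 they gave 75 and 48 higher. The lowest limma count of higher genes came without knockdown replicate 3 and the highest without control replicate 1. Of the 10 genes, 4 were called; 1 was called without the filter and 1 after quantile normalization, 2 by DESeq2 and 7 without the trend. Leaving out 1 library called 1 to 6 of them by limma, 0 to 4 after scaling and 0 to 4 by edgeR. Of the 85 other pathway genes 19 were called, 11 without the filter. Leaving out 1 library called 3 to 26 by limma, 0 to 21 after scaling (9 without knockdown replicate 3, 11 without control replicate 2) and 0 to 21 by edgeR (9 and 8). The cause of these differences was not tested. Among the members, Taz, the called pathway genes and the most abundant pathway gene of each role, all run through every alternative, the sign turned for 3 that were not called. Of other genes named, Gcg turned from 0.019 by limma to -0.014 by edgeR and by DESeq2. Bmp1 (-0.13) was at 0.015 without control replicate 1 and at -0.28 without control replicate 2. Bmpr1a (0.0023) was at -0.0039 with a pseudocount of 0.5, -0.0098 after scaling, -0.011 by edgeR and by DESeq2, -0.014 on read pairs, and -0.098 to 0.091 without 1 library; without control replicate 2 or knockdown replicate 4 it was at -0.087 and -0.020 by limma, -0.089 and -0.033 after scaling, and -0.098 and -0.026 by edgeR. Itgav (0.0093) was at -0.0044 after scaling, -0.0034 by edgeR, -0.0036 by DESeq2 and on read pairs, and -0.085 to 0.093 without 1 library; without the same 2 libraries it was at -0.075 and -0.055 by limma, -0.078 and -0.069 after scaling, and -0.085 and -0.062 by edgeR. Direction held in every alternative run for Inhba, Tgfb1, Tgfbr2 and Smad7. No paired analysis was run, because the labels give no pairing of control and knockdown libraries. Depth limits Fst (2 to 4 reads) and Tgfb2 (4 to 26 reads) most.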
